A study of Mus musculus with 18 samples.

Results

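Imprinted genes are transcribed mainly or solely from 1 parental allele, and 41 of them, drawn from 19 imprinted clusters or single loci of the mouse, were looked up among the arrays' probes by the platform's gene symbol. Of the 41, 31 were measured with 1 probe each, 28 under the current symbol and 3 under an older one (Meg3 as Gtl2, Airn as 2810051F02Rik and Trappc9 as 1810044A24Rik). All 31 passed the filter on dim probes that left 22540 of the array's 23473 probes for testing, and 10 of the 41 (Blcap, Kcnq1ot1, Mcts2, Mirg, Mkrn3, Nespas, Nnat, Peg10, Rian and Zrsr1) were not analysed here. Of the measured genes 15 were grouped as paternally and 12 as maternally expressed, Ube3a as maternal in neurons, and Gnas, Grb10 and Igf2r as tissue dependent. The grouping follows the allele known for each gene, which need not hold in every tissue. Which allele is read in these hippocampi was not measured.

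The RNA came from the hippocampus of 4 AtrxΔE2 mice given 5-aminolevulinic acid (5-ALA, the precursor of haem), 7 AtrxΔE2 mice without it and 7 wild-type mice, with 1 single-colour array per mouse. AtrxΔE2 is a mutant allele of Atrx, an X-linked chromatin remodeller, and the treated mice carry it too. 5-ALA was given orally at 3 mg per kg every day, starting on postnatal day 30 and ending on day 90; strain, sex and age at dissection were not given in the sources used here. The arrays fell by their identifiers into series A, with AtrxΔE2 1 to 3 and wild type 1 to 3, and series B, with 5-ALA 1 to 4, AtrxΔE2 4 to 7 and wild type 4 to 7, so groups were compared within a series. Within series B the identifiers ran by group, with wild type first, then AtrxΔE2 and then 5-ALA. Group and identifier order therefore cannot be told apart there.

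At an imprinted cluster, DNA methylation laid down in the egg or the sperm marks a control region, and the mark is kept on that allele through development and decides which of the neighbouring genes are read from it. KRAB zinc finger proteins such as ZFP57, with TRIM28, SETDB1 and DNMT1, keep the mark, and ATRX is known to bind control regions and to place histone H3.3 at silent repeats. Many imprinted genes act on growth and on neurons, and the total RNA level measured here does not tell the alleles apart.

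Levels are log2 of background-corrected, quantile-normalized intensity. The offset of 50 used in the correction makes changes of dim genes look smaller, and the number of arrays limits the precision. The authors' own table gives background-subtracted values scaled to an array median of 25. On that scale 7 of the 31 genes (H19, Phlda2, Dlk1, Magel2, Asb4, Calcr and Grb10) averaged below 5, between 1.13 for H19 and 4.43 for Calcr, and the other 24 averaged between 5.6 for Slc38a4 and 4580 for Snrpn. H19 was brighter than 95% of an array's blank spots on 9 of 18 arrays, Asb4 on 11, and Phlda2 and Dlk1 on 16 each; on the 4 5-ALA arrays Asb4 was not well above background. The plot of all levels shows the dim genes near 6 and Snrpn at the far right.

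**Figure D1:**
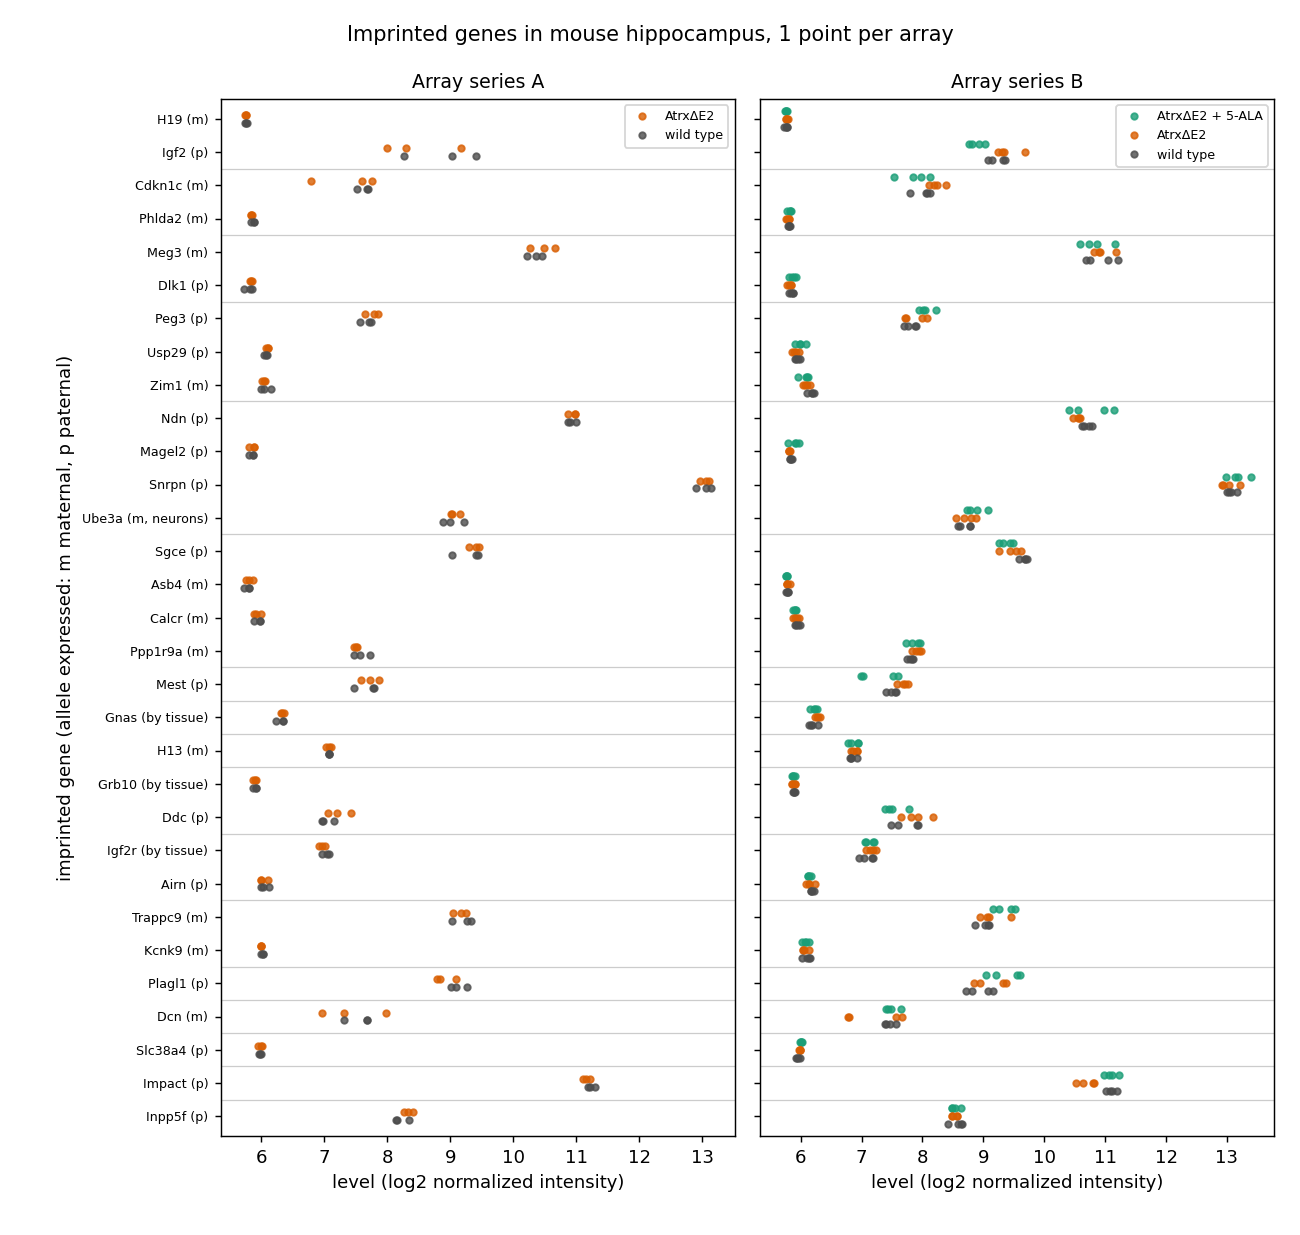
Level of each of the 31 measured imprinted genes on each array (horizontal axis, log2 normalized intensity; 1 point per array), grouped by cluster, for AtrxΔE2 and wild type in series A (left) and for 5-ALA-treated AtrxΔE2, AtrxΔE2 and wild type in series B (right). In series B the AtrxΔE2 points of Impact, at 10.52 to 10.82, lie left of every 5-ALA and wild-type point.

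The libraries differed in the mutated gene and also in ways that the groups do not name. Atrx itself lay at 6.04, 6.01, 6.23 and 6.17 on the 5-ALA arrays, at 6.05 to 6.31 on 3 AtrxΔE2 arrays of series B (array 7 was unusable) and at 6.36 to 6.61 on the wild-type ones; in series A it lay at 6.38 to 6.51 in AtrxΔE2 and 6.82 to 7.08 in wild type. AtrxΔE2 minus wild type was not called within series A (-0.52, limma adjusted p 0.179) or series B (-0.29, limma adjusted p 0.0927). It was called over both series (-0.40, limma adjusted p 0.0333), and 5-ALA minus wild type was called in series B (-0.39, limma adjusted p 0.00847). The probe's place relative to the mutated part was not given. Blank spots averaged 61.9 to 63.2 on 5-ALA arrays, 59.3 to 61.6 on AtrxΔE2 arrays and 55.3 to 56.6 on wild-type arrays of series B, without overlap. All 12 measured of 14 hippocampal neuron markers had an authors' value on all 18 arrays. Their summed values ran from 4229 to 5086 in 5-ALA, 5102 to 6110 in AtrxΔE2 and 4878 to 5687 in wild-type arrays of series B. In series A they ran from 8188 to 9516 in AtrxΔE2 and 8597 to 8768 in wild type. By gene, 10 of the 12 were positive and 2 negative for 5-ALA minus AtrxΔE2 (median log2 difference 0.137). The same counts held for 5-ALA minus wild type (median 0.262). For AtrxΔE2 minus wild type in series B 9 were positive and 3 negative (median 0.144). Called were 1 higher and 1 lower (Snap25) for 5-ALA against AtrxΔE2 (16.7%, against 6.75% of all probes). Against wild type 4 were called higher (33.3%, against 10.4%). The summed authors' values of 12 measured choroid plexus markers ran from 33600 to 37400 in 5-ALA, 37080 to 42710 in AtrxΔE2 and 29910 to 35800 in wild-type arrays of series B, against 946.8 to 1179 in series A. Those of 10 markers of striatum, thalamus and septum ran from 4200 to 4547 in 5-ALA, 6638 to 7243 in AtrxΔE2 and 4988 to 6249 in wild-type arrays of series B, and from 925.5 to 1916 in series A. In bulk RNA, fewer cells of a type and less RNA per cell cannot be told apart.

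The genotype comparison asked whether imprinted genes differ between AtrxΔE2 and wild-type hippocampus. In series B 1 of the 31, Impact, was lower in AtrxΔE2, and in series A 0 were called. A gene counts as called when limma's linear model of the 18 arrays gives it a p under 0.05 once adjusted by Benjamini and Hochberg for the 22540 probes tested. Of all tested probes 2.41% were called in series B and 0.00887% in series A. At an unadjusted p under 0.05 stood 3 of 31 members in series B (9.68%, against 16.6% of all probes) and 0 of 31 in series A (against 3.02%). Groups that did not overlap were found for 3 members in series B (Impact, Mest and Ndn; 9.68%, against 12% of all probes) and for Kcnk9 in series A (3.23%, against 7.47%). The median difference of the 31 was 0.004 in series B and -0.006 in series A, beside 0.002 and -0.001 over all probes. The 1 called gene is 3.23% of the members, near the share of all probes, and the other shares lay below those of all probes.

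The 5-ALA comparison asked what the treatment changed in AtrxΔE2 hippocampus. Impact was again the called member, now higher after 5-ALA, and it was the only 1 of 31, against 6.75% of all probes. A further 5 of the 31 (Mest, Magel2, Ddc, Usp29 and Igf2) stood at an unadjusted p under 0.05 without passing the adjustment, which with Impact makes 19.4%, against 22.3% of all probes. The groups did not overlap for Impact, Igf2 and Slc38a4 (9.68%, against 11.4%). The median difference was -0.007 over the members and 0 over all probes, and the median size without regard to sign was 0.076 against 0.048. Against wild type, 5-ALA-treated AtrxΔE2 had 0 called members, against 10.4% of all probes; 6 (Sgce, Trappc9, Slc38a4, Peg3, Plagl1 and Zim1) stood at an unadjusted p under 0.05, or 19.4% against 27.1% of all probes. The groups did not overlap for Sgce, Trappc9, Peg3, Igf2, Airn and Slc38a4 (19.4%, against 16.1%). The 3 series B comparisons share their arrays in pairs, so their values are given side by side and not set against each other.

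**Figure D2:**
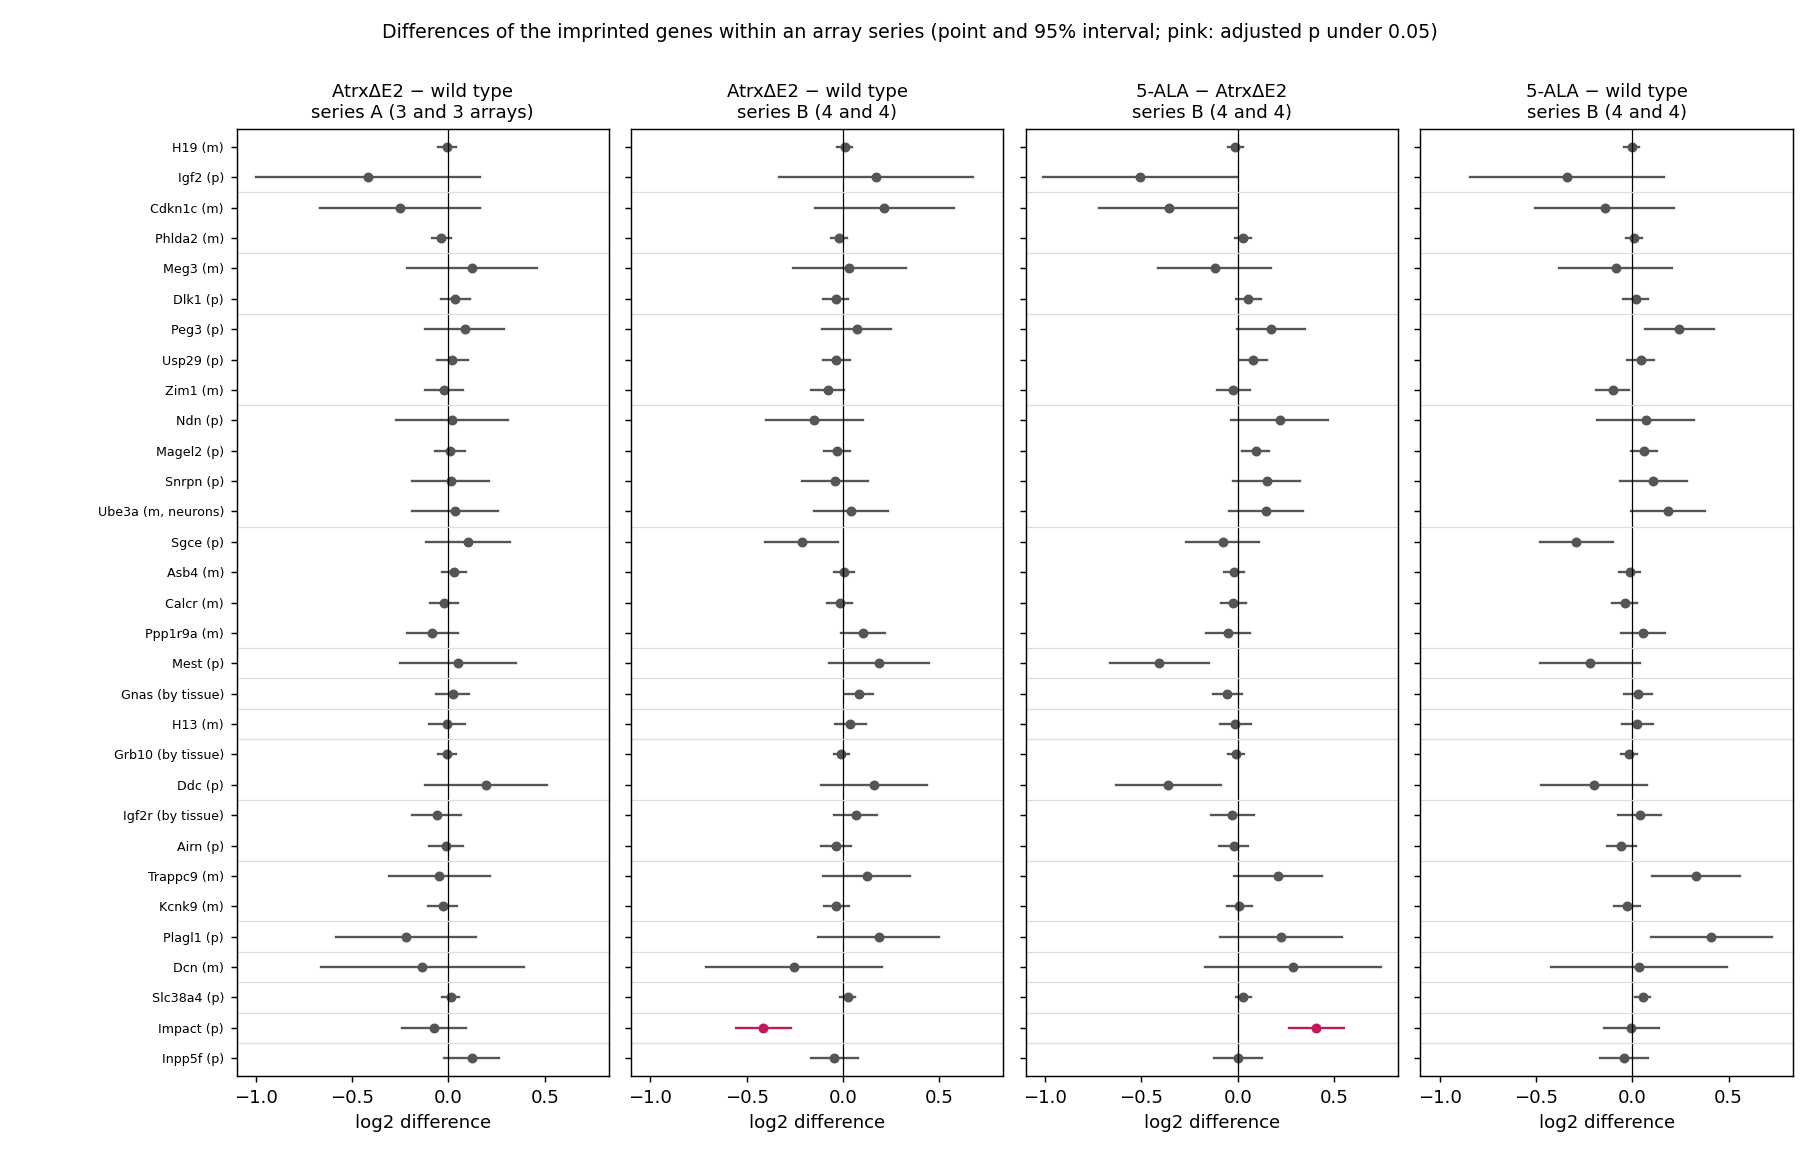
Log2 difference of each imprinted gene (point) with its 95% interval (line) in the 4 comparisons within a series, from left to right AtrxΔE2 minus wild type (series A, then B), 5-ALA minus AtrxΔE2 (series B) and 5-ALA minus wild type (series B). The coloured points are the only 2 at an adjusted p under 0.05, Impact at -0.41 for AtrxΔE2 minus wild type in series B and at 0.41 for 5-ALA minus AtrxΔE2.

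Impact encodes an inhibitor of the translation-regulating kinase GCN2, is abundant in neurons and is read from the paternal allele in the mouse. Its log2 level was 11.23, 10.98, 11.11 and 11.07 in 5-ALA arrays 1 to 4, 10.52, 10.63, 10.80 and 10.82 in AtrxΔE2 arrays 4 to 7, and 11.20, 11.12, 11.01 and 11.08 in wild-type arrays 4 to 7. Every AtrxΔE2 array of series B lay below every array of both other groups, which overlapped. In the authors' table the 4 AtrxΔE2 arrays read 645.2, 706.6, 769.8 and 832.2, while 5-ALA read 865 to 1110.4 and wild type 957.7 to 1088.7. Impact was 0.41 lower in AtrxΔE2 than in wild type (log2 difference -0.41, SE 0.0669, 95% interval -0.556 to -0.27, n = 4 each, limma adjusted p 0.00483). On the authors' values AtrxΔE2 stood at 0.706 of wild type. After 5-ALA it was 0.41 higher than in untreated AtrxΔE2 (SE 0.0669, 95% interval 0.265 to 0.551, n = 4 each, limma adjusted p 0.00361), a ratio of 1.34 on the authors' values. 5-ALA minus wild type was -0.01 with a 95% interval from -0.148 to 0.138 (limma adjusted p 0.971).

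In series A Impact lay at 11.15, 11.21 and 11.11 in AtrxΔE2 arrays 1 to 3 and at 11.21, 11.18 and 11.30 in wild-type arrays 1 to 3. These groups overlapped, with a difference of -0.07 and a 95% interval from -0.24 to 0.09 (limma adjusted p 1). The genotype difference in series B was 0.34 lower than that in series A (SE 0.102, p 0.00485, limma adjusted p 0.322), which was not called. Over both series the genotype difference was -0.27 (limma adjusted p 0.133). The genotype call of series B was also lost without wild-type arrays 4 and 5 (-0.36, adjusted p 0.0899), and when the mean blank-spot intensity entered as a covariate (-0.44, adjusted p 0.266), where the 5-ALA call was kept (0.39, adjusted p 0.0418). With consecutive arrays averaged in pairs both calls were lost, at limma adjusted p of 0.14 and 0.107. Consecutive here means next in the order of the identifiers, in which a number is skipped between AtrxΔE2 arrays 6 and 7. Choroid plexus markers moved in the opposite direction in the same groups, with 7 of 12 called higher in AtrxΔE2 than in wild type (58.3%, against 2.41% of all probes; median 0.375) and 7 of 12 called lower after 5-ALA than in AtrxΔE2 (58.3%, against 6.75%; median -0.321). As a sum, astrocyte markers ran the same way as Impact between AtrxΔE2 and both other groups. The summed authors' values of their 8 genes were 6739 to 6899 in 5-ALA, 6100 to 6454 in AtrxΔE2 and 7249 to 7996 in wild-type arrays of series B, so that the 3 groups did not overlap and 5-ALA lay between the others. In series A the sums overlapped, at 10190 to 11150 in AtrxΔE2 and 10690 to 11400 in wild type. Of the 8 genes, Gja1, the astrocytic connexin gene, was called lower in AtrxΔE2 than in wild type in series B (-0.40, limma adjusted p 0.0425), and 0 were called for 5-ALA against AtrxΔE2 (4 at an unadjusted p under 0.05). By gene the signs were mixed. For AtrxΔE2 minus wild type in series B 2 were positive and 6 negative (median -0.104). For 5-ALA minus AtrxΔE2 5 were positive and 3 negative (median 0.072). The summed striatal, thalamic and septal markers were highest in AtrxΔE2, although of their 10 genes 1 was called higher and 2 lower there than in wild type (30% in all, against 2.41%). The part of these 3 lists in the Impact result was not tested.

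Among the genes next to Impact on its chromosome, chosen after their values had been seen, none of Ttc39c, Cabyr, Osbpl1a, Zfp521, Ss18 and Psma8 was called in series B for AtrxΔE2 against wild type or for 5-ALA against AtrxΔE2, by limma adjusted over all probes. At an unadjusted p under 0.05 stood Zfp521 (-0.14, p 0.0413) and Cabyr (0.04, p 0.0377) for the genotype and Osbpl1a (-0.09, p 0.0471) for 5-ALA. Osbpl1a was lower in 5-ALA-treated mice than in wild type, by 0.14 (limma adjusted p 0.0494).

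**Figure D3:**
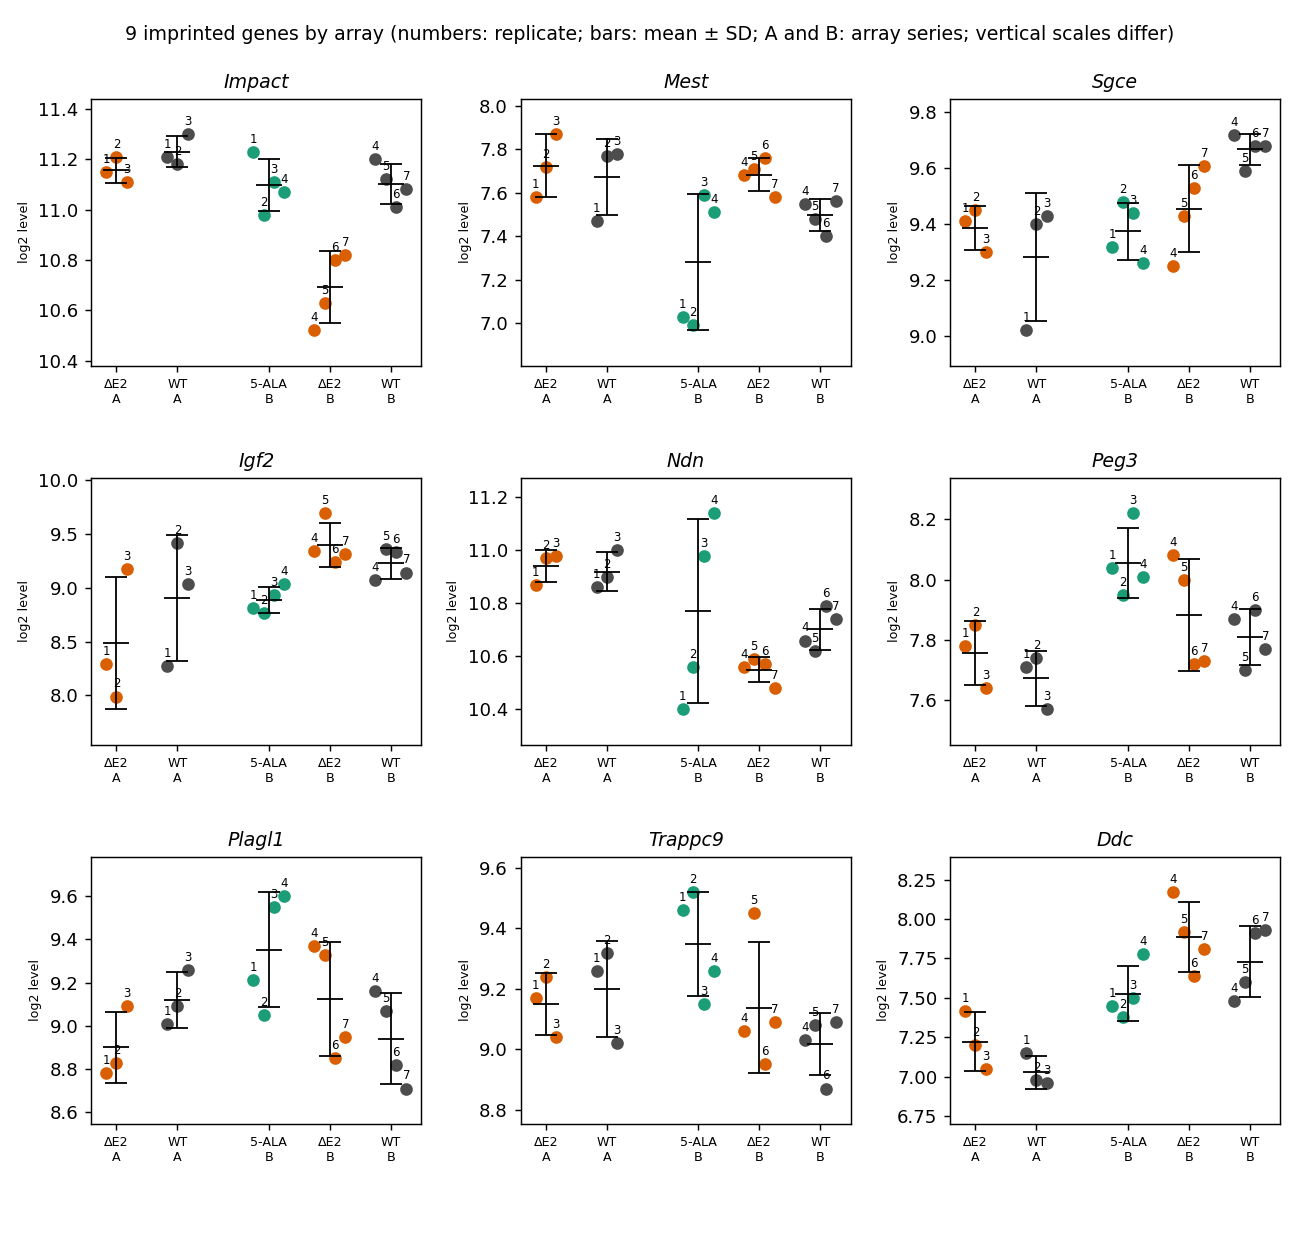
Log2 normalized intensity of 9 imprinted genes on each array (points, numbered by replicate; bars, mean ± SD; each panel has its own vertical scale) for AtrxΔE2 and wild type of series A, then 5-ALA, AtrxΔE2 and wild type of series B. Mest and Ndn fall apart within the 5-ALA group, where arrays 1 and 2 lie below arrays 3 and 4.

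Among the paternally expressed growth regulators, Mest, an enzyme of the hydrolase fold family, showed a difference carried by part of a group. Its level was 7.03, 6.99, 7.59 and 7.51 in 5-ALA arrays 1 to 4, 7.68, 7.71, 7.76 and 7.58 in AtrxΔE2 arrays 4 to 7, and 7.55, 7.48, 7.40 and 7.56 in wild-type arrays 4 to 7. 5-ALA arrays 1 and 2 lay below all other arrays, and arrays 3 and 4 lay among those of the other groups. 5-ALA minus AtrxΔE2 was -0.41 (SE 0.122, p 0.00451, limma adjusted p 0.0586), not called. Without 5-ALA arrays 1 and 2 it was -0.14 (limma adjusted p 0.523), and without arrays 3 and 4 it was -0.68 (limma adjusted p 0.000394). AtrxΔE2 minus wild type was 0.19 in series B (limma adjusted p 0.474), where the groups did not overlap, and 0.05 in series A, where AtrxΔE2 arrays read 7.58, 7.72 and 7.87 and wild-type arrays 7.47, 7.77 and 7.78.

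Plagl1, a zinc finger transcription factor gene that restrains cell growth, read 9.21, 9.05, 9.55 and 9.60 in 5-ALA, 9.37, 9.33, 8.85 and 8.95 in AtrxΔE2 and 9.16, 9.07, 8.82 and 8.71 in wild-type arrays of series B. The 3 groups overlapped, and within AtrxΔE2 arrays 4 and 5 stood above 6 and 7. 5-ALA minus wild type was 0.41 (SE 0.148, p 0.0141, limma adjusted p 0.0888), 5-ALA minus AtrxΔE2 0.23 and AtrxΔE2 minus wild type 0.19, the last of which turned to -0.04 without AtrxΔE2 arrays 4 and 5, while 5-ALA minus AtrxΔE2 came to 0.00 without AtrxΔE2 arrays 6 and 7. In series A it was 8.78, 8.83 and 9.09 in AtrxΔE2 and 9.01, 9.09 and 9.26 in wild type, a difference of -0.22.

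Peg3 and Usp29 are paternally expressed neighbours that start in opposite directions, and Zim1 beside them is maternally expressed. Peg3, a zinc finger gene known for effects on maternal care, read 8.04, 7.95, 8.22 and 8.01 in 5-ALA, 8.08, 8.00, 7.72 and 7.73 in AtrxΔE2 and 7.87, 7.70, 7.90 and 7.77 in wild-type arrays of series B. Every 5-ALA array lay above every wild-type array, and AtrxΔE2 arrays 4 and 5 lay within the range of the 5-ALA arrays. 5-ALA minus wild type was 0.24 (SE 0.0839, p 0.0108, limma adjusted p 0.0757) and 5-ALA minus AtrxΔE2 0.17 (limma adjusted p 0.242), neither called; it was 0.07 for AtrxΔE2 minus wild type in series B. In series A Peg3 read 7.78, 7.85 and 7.64 in AtrxΔE2 and 7.71, 7.74 and 7.57 in wild type, a difference of 0.08. Usp29, a deubiquitinase gene, differed by 0.08 between 5-ALA and AtrxΔE2 (p 0.0332, limma adjusted p 0.178) and by at most 0.04 in size elsewhere. Zim1, another zinc finger gene, differed by -0.10 between 5-ALA and wild type (limma adjusted p 0.117). On the authors' values, without the offset, these ratios were 1.34 for Usp29 and 0.669 for Zim1.

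Promoter sequence was available for 24 of the 31 measured genes, as RefSeq windows of 300 bases on GRCm38.p6, from 250 bases before a start to 50 after it; where a gene has several starts the window with the most CpG was taken. The windows held a median of 17 CpG (3 to 48), against 8 over 27025 genes. Their median GC content was 62.2%, against 53.3%. Both patterns counted below are rich in G and C, and the shares were not matched for GC content. TGCCGC, the core of the ZFP57 motif, searched on both strands, was found in 7 of 24 (29.2%, against 12.2% of all genes), namely Meg3, Zim1, Snrpn, Calcr, Mest, Grb10 and Plagl1, and 2 of these (Mest and Calcr) held it more than once. Runs of at least 3 G, 4 in a row and 1 to 7 bases apart, on either strand, a pattern that can fold into the quadruplex structures ATRX is known to bind, were found in 10 of 24 (41.7%, against 18.9%). A match is a description of letters, and no called difference fell on a gene with a window, since Impact has none in the table. The windows of Mest and Plagl1 are shown because they carry the ZFP57 letters and belong to genes described above, and that of Peg3 because it shares 263 bases with the window of Usp29 on the opposite strand. All are written 5′ to 3′ on the gene's own strand. Mest lies at chr6:30737800-30738099 on the plus strand and Plagl1 at chr10:13090582-13090881 on the plus strand, with capitals for TGCCGC read on the opposite strand, and Peg3 at chr7:6730370-6730669 on the minus strand, with capitals for the run pattern, here as runs of C.
Mest: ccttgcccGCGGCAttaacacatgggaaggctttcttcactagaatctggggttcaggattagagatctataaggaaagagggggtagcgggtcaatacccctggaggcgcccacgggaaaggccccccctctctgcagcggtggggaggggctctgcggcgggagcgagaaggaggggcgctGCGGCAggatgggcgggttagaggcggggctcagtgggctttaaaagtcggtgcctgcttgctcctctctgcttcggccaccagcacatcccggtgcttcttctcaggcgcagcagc
Plagl1: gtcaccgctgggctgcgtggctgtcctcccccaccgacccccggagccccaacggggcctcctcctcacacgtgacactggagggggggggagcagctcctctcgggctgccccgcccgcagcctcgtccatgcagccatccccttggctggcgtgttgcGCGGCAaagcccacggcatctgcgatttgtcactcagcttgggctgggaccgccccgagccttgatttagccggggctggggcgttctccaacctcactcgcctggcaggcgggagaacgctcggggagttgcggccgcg
Peg3: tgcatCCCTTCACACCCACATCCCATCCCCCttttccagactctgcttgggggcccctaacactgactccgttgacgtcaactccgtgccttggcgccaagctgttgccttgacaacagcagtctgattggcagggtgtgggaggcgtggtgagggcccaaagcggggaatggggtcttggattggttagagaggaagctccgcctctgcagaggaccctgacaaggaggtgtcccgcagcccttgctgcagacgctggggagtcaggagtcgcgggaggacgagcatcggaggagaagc

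In the Prader-Willi and Angelman domain the 4 measured genes had positive differences for 5-ALA minus AtrxΔE2, between 0.09 and 0.22 (median 0.147), and none was called. Snrpn, which encodes a spliceosome protein and was the brightest imprinted gene here, read 13.19, 13.39, 12.99 and 13.14 in 5-ALA, 12.92, 13.21, 12.93 and 13.04 in AtrxΔE2 and 13.07, 13.04, 13 and 13.16 in wild-type arrays of series B. These ranges overlapped, with differences of 0.15 for 5-ALA minus AtrxΔE2, 0.11 for 5-ALA minus wild type (0.00 without 5-ALA arrays 1 and 2) and -0.04 for AtrxΔE2 minus wild type. In series A it read 13.06, 13.11 and 12.96 in AtrxΔE2 and 13.05, 13.14 and 12.90 in wild type.

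Ndn encodes necdin, a MAGE family protein of postmitotic neurons. It read 10.40, 10.56, 10.98 and 11.14 in 5-ALA, 10.56, 10.59, 10.57 and 10.48 in AtrxΔE2 and 10.66, 10.62, 10.79 and 10.74 in wild-type arrays of series B. AtrxΔE2 lay below wild type without overlap (difference -0.15, not called), and the 5-ALA arrays spanned both, 1 and 2 low and 3 and 4 high. 5-ALA minus AtrxΔE2 was 0.22 (limma adjusted p 0.301) and 5-ALA minus wild type 0.07. Without 5-ALA arrays 1 and 2 these became 0.51 and 0.36 (limma adjusted p 0.00201 and 0.0108), and without arrays 3 and 4 they turned to -0.07 and -0.22 (limma adjusted p for the difference from wild type 0.0141). In series A Ndn read 10.87, 10.97 and 10.98 in AtrxΔE2 and 10.86, 10.90 and 11 in wild type.

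Magel2, its dim MAGE family neighbour, read 5.79, 5.90, 5.97 and 5.93 in 5-ALA, 5.80, 5.80, 5.82 and 5.81 in AtrxΔE2 and 5.84, 5.83, 5.82 and 5.86 in wild-type arrays of series B. Of the 4 5-ALA arrays, 1 lay below all AtrxΔE2 arrays and the others above them, for a difference of 0.09 (SE 0.0322, p 0.0115, limma adjusted p 0.0982). The offset shrinks this difference. The authors' values, all near background, averaged 3.425 in 5-ALA and 1.675 in AtrxΔE2, a ratio of 2.04. In series A it read 5.89, 5.88 and 5.80 in AtrxΔE2 and 5.87, 5.81 and 5.86 in wild type. Ube3a, the ubiquitin ligase gene whose maternal copy is lost in Angelman syndrome, read 9.07, 8.73, 8.90 and 8.78 in 5-ALA, 8.80, 8.88, 8.68 and 8.55 in AtrxΔE2 and 8.78, 8.59, 8.78 and 8.61 in wild-type arrays of series B. All ranges overlapped, and 5-ALA minus wild type was 0.18 (limma adjusted p 0.203). In series A Ube3a read 9.15, 9.03 and 9.01 in AtrxΔE2 and 8.88, 9.22 and 8.99 in wild type.

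In the Peg10 and Sgce domain, Sgce, the paternally expressed gene of epsilon-sarcoglycan, came closest to a call against wild type. It read 9.32, 9.48, 9.44 and 9.26 in 5-ALA, 9.25, 9.43, 9.53 and 9.61 in AtrxΔE2 and 9.72, 9.59, 9.68 and 9.68 in wild-type arrays of series B. All 5-ALA arrays lay below all wild-type arrays, and AtrxΔE2 overlapped with both. 5-ALA minus wild type was -0.29 (SE 0.0889, p 0.00527, limma adjusted p 0.0504), and AtrxΔE2 minus wild type -0.21 (p 0.0296, limma adjusted p 0.24). In series A, where AtrxΔE2 read 9.41, 9.45 and 9.30 and wild type 9.02, 9.40 and 9.43, the genotype difference was 0.10, and it turned to -0.03 without wild-type array 1. The difference between the series, -0.32, was not called (p 0.0342, limma adjusted p 0.511). Among the maternally expressed genes of this domain, Ppp1r9a, which encodes the synaptic actin binder neurabin, differed by 0.10 for AtrxΔE2 minus wild type in series B and by -0.08 in series A. That series difference was 0.19 (p 0.0386, limma adjusted p 0.53). Calcr, the calcitonin receptor gene, and Asb4, a gene of ubiquitin ligase adaptors, differed by at most 0.04 in size. On the authors' values, without the offset, Calcr in 5-ALA stood at 0.673 of wild type.

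In the H19 and Igf2 domain, the growth factor gene Igf2 varied widely between arrays. It read 8.81, 8.76, 8.93 and 9.03 in 5-ALA, 9.34, 9.69, 9.24 and 9.31 in AtrxΔE2 and 9.07, 9.36, 9.33 and 9.14 in wild-type arrays of series B. Every 5-ALA array lay below all others of series B, but 5-ALA minus AtrxΔE2, -0.51 (SE 0.236, p 0.0484, limma adjusted p 0.22), and 5-ALA minus wild type, -0.34 (limma adjusted p 0.383), were not called. In series A it read 8.29, 7.99 and 9.17 in AtrxΔE2 and 8.27, 9.41 and 9.03 in wild type, for a difference of -0.42 (SE 0.273, p 0.145) that ran from -0.76 without AtrxΔE2 array 3 to -0.16 without wild-type array 2. In the brain Igf2 is made largely by the choroid plexus and the meninges, where both alleles are known to be read. The summed authors' values of 12 measured meningeal and fibroblast markers were 714.8, 679.5, 630.6 and 560.6 in 5-ALA, 972, 914.7, 726.9 and 828.6 in AtrxΔE2 and 770.2, 860.7, 742.5 and 758.9 in wild-type arrays of series B. In series A they were 529.6, 488.3 and 897.2 in AtrxΔE2 and 559.4, 840.8 and 841.1 in wild type. The arrays low in these markers in series A were those low in Igf2, and the 5-ALA sums lay below all others of series B. By gene, 3 of the 12 were positive and 9 negative for 5-ALA minus AtrxΔE2 (median -0.019). Of these 1 was called, Igfbp2 (-0.58), or 8.33% against 6.75% of all probes. For AtrxΔE2 minus wild type in series B 3 were positive and 9 negative (median -0.068), although the AtrxΔE2 sums reached higher. The part of choroid plexus and meningeal cells in the Igf2 values was not tested. H19, the maternally expressed noncoding RNA of the domain, lay between 5.72 and 5.79 on all arrays, near background, and differed by at most 0.01 in size.

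Dcn, the gene of the matrix proteoglycan decorin, is expressed by the same fibroblasts. It read 7.43, 7.40, 7.48 and 7.65 in 5-ALA, 7.67, 7.57, 6.78 and 6.79 in AtrxΔE2 and 7.39, 7.40, 7.56 and 7.47 in wild-type arrays of series B. AtrxΔE2 arrays 6 and 7 lay below all others, although their meningeal and fibroblast sums (726.9 and 828.6) lay above those of every 5-ALA array. The 5-ALA arrays, lowest in those sums, overlapped with wild type in Dcn. AtrxΔE2 minus wild type was -0.25 (SE 0.214) and 5-ALA minus AtrxΔE2 0.29 (SE 0.214), neither called, and without AtrxΔE2 arrays 6 and 7 both turned, to 0.16 and -0.13. In series A Dcn read 7.31, 6.97 and 7.97 in AtrxΔE2 and 7.31, 7.67 and 7.67 in wild type, a difference of -0.14 that turned to 0.09 without AtrxΔE2 array 2.

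Cdkn1c, a cyclin-dependent kinase inhibitor gene of the Kcnq1 domain, read 7.97, 8.13, 7.53 and 7.85 in 5-ALA, 8.38, 8.23, 8.19 and 8.11 in AtrxΔE2 and 8.05, 8.08, 8.13 and 7.79 in wild-type arrays of series B. Of the 5-ALA arrays, array 2 overlapped with AtrxΔE2 and the others lay below it, at a difference of -0.36 (p 0.0524, limma adjusted p 0.23), and AtrxΔE2 minus wild type was 0.22. In series A it read 7.75, 6.79 and 7.59 in AtrxΔE2 and 7.69, 7.52 and 7.68 in wild type, a difference of -0.25 that turned to 0.04 without AtrxΔE2 array 2, which lay apart from the 5 others. Phlda2, which restrains placental growth and is dim here, read 5.82, 5.78, 5.84 and 5.82 in 5-ALA, 5.78, 5.75, 5.81 and 5.81 in AtrxΔE2 and 5.83, 5.80, 5.79 and 5.80 in wild-type arrays of series B, and 5.83, 5.84 and 5.85 in AtrxΔE2 against 5.89, 5.84 and 5.88 in wild type of series A (-0.04, p 0.131).

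In the Dlk1 and Meg3 domain neither gene was called. The maternally expressed noncoding RNA Meg3 read 10.58, 10.73, 11.17 and 10.86 in 5-ALA, 10.90, 10.82, 10.91 and 11.18 in AtrxΔE2 and 11.21, 11.04, 10.68 and 10.75 in wild-type arrays of series B, with differences of -0.12 for 5-ALA minus AtrxΔE2 (0.06 without 5-ALA arrays 1 and 2) and 0.03 for AtrxΔE2 minus wild type. In series A it read 10.48, 10.26 and 10.66 in AtrxΔE2 and 10.21, 10.36 and 10.46 in wild type (0.12). Dlk1, a Notch-ligand-like membrane protein gene, lay near background at 5.81 to 5.93 in 5-ALA, 5.77 to 5.84 in AtrxΔE2 and 5.81 to 5.88 in wild type of series B, with differences of at most 0.06 in size. On the authors' values, without the offset, its ratios were 1.52 for 5-ALA against AtrxΔE2 and 0.605 for AtrxΔE2 against wild type.

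Of the Grb10 and Ddc locus, Ddc, which encodes the decarboxylase that makes dopamine and serotonin, read 7.45, 7.38, 7.50 and 7.78 in 5-ALA, 8.17, 7.92, 7.64 and 7.81 in AtrxΔE2 and 7.48, 7.60, 7.91 and 7.93 in wild-type arrays of series B. The highest 5-ALA array overlapped with AtrxΔE2, and 5-ALA minus AtrxΔE2 was -0.36 (SE 0.128, p 0.0135, limma adjusted p 0.108). AtrxΔE2 minus wild type was 0.16 in series B, where it turned to -0.03 without wild-type arrays 4 and 5. In series A Ddc read 7.42, 7.20 and 7.05 in AtrxΔE2 and 7.15, 6.98 and 6.96 in wild type, a difference of 0.20. Grb10, an adaptor gene that restrains insulin and IGF receptor signalling, lay at 5.86 to 5.90 in 5-ALA, 5.85 to 5.90 in AtrxΔE2 and 5.87 to 5.90 in wild type, and differed by at most 0.02 in size. Its authors' values, without the offset and near background, stood at 0.729 of wild type in 5-ALA and 0.852 in AtrxΔE2 of series B. At the Trappc9 and Kcnk9 domain, Trappc9, a vesicle trafficking gene, read 9.46, 9.52, 9.15 and 9.26 in 5-ALA, 9.06, 9.45, 8.95 and 9.09 in AtrxΔE2 and 9.03, 9.08, 8.87 and 9.09 in wild-type arrays of series B. Every 5-ALA array lay above every wild-type array (0.33, SE 0.107, p 0.00727, limma adjusted p 0.061). Without 5-ALA arrays 3 and 4 this was 0.47 and called (limma adjusted p 0.0124). In series A Trappc9 read 9.17, 9.24 and 9.04 in AtrxΔE2 and 9.26, 9.32 and 9.02 in wild type. Kcnk9, a potassium channel gene, differed by at most 0.04 in size. Its authors' values, without the offset, stood at 0.804 of wild type in 5-ALA and 0.848 in AtrxΔE2 of series B.

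The remaining measured genes showed small differences. Gnas, the gene of a stimulatory G protein subunit, read 6.24, 6.26, 6.22 and 6.16 in 5-ALA, 6.27, 6.31, 6.28 and 6.23 in AtrxΔE2 and 6.13, 6.17, 6.18 and 6.29 in wild type of series B, with AtrxΔE2 minus wild type at 0.08 (SE 0.0349, p 0.0305, limma adjusted p 0.244). Its series A arrays read 6.33, 6.31 and 6.36 in AtrxΔE2 and 6.34, 6.35 and 6.23 in wild type. Inpp5f, an inositol phosphatase gene, had the smallest p of series A, with 8.40, 8.33 and 8.27 in AtrxΔE2 and 8.13, 8.15 and 8.35 in wild type (0.12, SE 0.0666, p 0.0916), and stood at -0.05 in series B, with 5-ALA arrays at 8.63, 8.48, 8.54 and 8.48, AtrxΔE2 arrays at 8.57, 8.56, 8.49 and 8.49 and wild-type arrays at 8.59, 8.42, 8.64 and 8.65. Slc38a4, an amino acid transporter gene, read 6.01, 5.99, 6.02 and 6.01 in 5-ALA, 5.99, 5.97, 5.98 and 5.98 in AtrxΔE2 and 5.94, 5.99, 5.96 and 5.93 in wild type of series B, where 5-ALA minus wild type was 0.05 (SE 0.0184, p 0.0101, limma adjusted p 0.073). Before rounding, its lowest 5-ALA array lay just above the highest of either other group. The arrays of series A read 5.95, 5.99 and 6.01 in AtrxΔE2 and 5.96, 5.98 and 5.99 in wild type. Igf2r, the receptor that clears IGF2, and H13, a signal peptide peptidase gene, differed by at most 0.07 and 0.04 in size. The probe matched to Airn, the antisense noncoding RNA that silences Igf2r, by its older symbol differed by at most 0.06. Its authors' values, without the offset, stood at 0.763 of wild type in 5-ALA and 0.865 in AtrxΔE2 of series B. The strand and isoform this probe reads were not given in the sources used here.

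Grouped by the allele known for them, not measured here, the 15 paternal genes had a median of 0.056 for 5-ALA minus AtrxΔE2 (10 positive, 5 negative). Their median was -0.035 for AtrxΔE2 minus wild type in series B (6 positive, 9 negative). The 12 genes grouped as maternal had medians of -0.015 (4 positive, 8 negative) and 0.007 (7 positive, 5 negative). At an unadjusted p under 0.05 stood 6 paternal and 0 maternal genes for 5-ALA against AtrxΔE2, 4 paternal and 2 maternal genes (Trappc9 and Zim1) for 5-ALA against wild type, and 2 paternal genes and Gnas for AtrxΔE2 against wild type in series B. Whether the alleles differ was not tested. In series A the medians were 0.019 for the paternal and -0.026 for the maternal genes.

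In the test of the genotype difference between the series, limma called 0 members, against 0.102% of all probes, and 3 stood at an unadjusted p under 0.05 (9.68%, against 8.94%). Over both series together it called 0, against 0.0887%, and 2 stood at an unadjusted p under 0.05 (6.45%, against 10.3%). The levels themselves differed between the series in wild type, most for Ddc (series B minus A, 0.70), Meg3 (0.58), Sgce and Cdkn1c (0.38 each), Inpp5f (0.36) and Ube3a (-0.34), with a median size of 0.13 over the members against 0.107 over all probes.

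Of 48 other imprinted genes, a list chosen like the members with earlier results known, 37 were measured, with 0 called by limma for the genotype in either series (at an unadjusted p under 0.05 stood 5 in series B, or 13.5% against 16.6% of all probes, and 1 in series A, or 2.7% against 3.02%). For 5-ALA against AtrxΔE2 limma called 1 (2.7%, against 6.75% of all probes), the phospholipid flippase gene Atp10a (0.25, limma adjusted p 0.0104). Against wild type 5 were called (13.5%, against 10.4%). Atp10a (0.17) and the Argonaute gene Ago2 (0.17) were higher in 5-ALA-treated mice, and Nap1l5 (-0.48), Copg2 (-0.34), a coat protein gene beside Mest, and Gatm (-0.50), of creatine synthesis, were lower.

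Among 18 measured of 20 genes that keep imprints or work with ATRX, 0 were called by limma for the genotype in either series (at an unadjusted p under 0.05 stood 3 in series B, or 16.7% against 16.6% of all probes, and 0 in series A). After 5-ALA 4 were called higher than in AtrxΔE2 (22.2%, against 6.75% of all probes): the maintenance DNA methyltransferase gene Dnmt1 (0.46, limma adjusted p 0.0111), the cohesin gene Smc3 (0.28), and the histone H3K9 methyltransferase genes Setdb1 (0.29) and Ehmt2 (0.31). The median of the list was 0.114, beside 0 over all probes. Against wild type 6 were called (33.3%, against 10.4%), with Dnmt1 (0.46), Dnmt3a (0.11), Smc3 (0.15), Setdb1 (0.30) and Ehmt2 (0.29) higher and Dnmt3b (-0.10) lower in 5-ALA-treated mice. Of the endothelial markers 3 of 11 (27.3%) and of the microglial ones 3 of 9 (33.3%) were called lower in 5-ALA than in AtrxΔE2, against 6.75% of all probes, and their part in these differences was not tested. All calls of these lists are from the fit of 18 single arrays. With consecutive arrays averaged, 10 of all probes were called higher and 13 lower for 5-ALA against AtrxΔE2.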

How the data were processed

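Total RNA of 18 hippocampi was amplified, coupled to Cy5 and hybridised to 1 single-colour array each, per the labels' protocols. Per the file headers, the deposited value of a spot is its median intensity at 635 nm, scanned at 3 gains related by least squares, with the background beside it and not subtracted. The authors' deposited series table gives 1 normalized intensity per probe, scaled to a median of 25 on every array, and its making is not described in the labels. It could be rebuilt on a linear scale from the spot intensity minus the mean of the blank spots, trimmed by 5% at each end, with the direction of the scanner values, and served as an alternative. The genome build of the array is not given in the sources used here.

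The spot values were background-corrected by normexp in limma (offset 50, fitted on all spots), set to missing where marked as unusable (at most 16 spots an array, none of a member), averaged per probe on the log2 scale and quantile normalized. No member value was saturated. Probes entered the tests if brighter than 95% of the 2736 blank spots on 4 or more arrays, the smallest group of series B, which left out 933. Then limma 3.58.1 in R 4.3.3 fitted 1 mean for each group and series to all 18 arrays, and a second model took genotype over both series with the series as a covariate. Tests were moderated, two-sided and adjusted by Benjamini and Hochberg over all 22540 probes. The fit was tested on simulated data. By the labels each array stands for 1 mouse.

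Symbols came from the platform's annotation, updated through RefSeq synonyms on GRCm38.p6. Members and lists were chosen with earlier results of these data known. Every array's value is given for members called in any comparison, for the 3 of smallest p in each comparison within a series, and for 12 members chosen for their role; for the dim H19, Dlk1 and Grb10 these are ranges, and Ddc and Dcn were added after their values were seen. Alternatives were no background correction, median scaling, the authors' table with pseudocounts of 5 and 1, no filter or a filter on all arrays, array weights, a trended and robust prior, only the compared arrays, consecutive arrays of series B as a random block or averaged, a threshold of 0.10, the replicate number as a block and leaving out each array. Leaving out consecutive pairs, and the blank-spot level as a covariate, were added after seeing the data.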

Additional observations from a re-analysis of the deposited data

Results flagged for a closer look

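In 2 of 93 groups of 4 arrays, 1 array lay apart from the other 3 by Dixon's criterion at 95%, and chance alone gives about 4.65. Calcr read 5.87 on 5-ALA array 2, with the nearest 5-ALA array at 5.91, a gap of 0.83 of the group's range. H13 read 6.92 on wild-type array 7 of series B, with the nearest wild-type array at 6.83, a gap of 0.86 of the range. Neither gene was called in any comparison.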

How the results depend on the processing

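The count of called members, 1 for the genotype in series B, was 6 with arrays scaled to their median, and 0 with consecutive arrays averaged, with the replicate block, without wild-type arrays 4 and 5 and with blank spots as a covariate. Leaving out single arrays always gave 1. Over both series the count, 0, was 7 with median scaling. For 5-ALA against AtrxΔE2 the count, 1, was 0 with median scaling, with only the compared arrays and with averaged arrays, 2 with the trended prior and without AtrxΔE2 arrays 4 and 5, and 3 at a threshold of 0.10, without 5-ALA arrays 1 and 2 and without 5-ALA arrays 3 and 4; single arrays left out gave 1 to 3. For 5-ALA against wild type the count, 0, was 1 with the authors' table at a pseudocount of 1, the filter on all arrays, the trended prior, only the compared arrays and without 5-ALA arrays 1 and 2. It was 2 with the authors' table at a pseudocount of 5 and without AtrxΔE2 arrays 6 and 7, 3 with median scaling, without AtrxΔE2 arrays 4 and 5 and without 5-ALA arrays 3 and 4, 5 at the 0.10 threshold, and 0 to 2 with single arrays left out. In series A, and for the difference between series, it was 0 under every alternative run.

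Impact in series B kept its direction under every alternative and its genotype call in all 18 leave-one-out fits (-0.46 to -0.36). The genotype call was lost with median scaling (-0.28, limma adjusted p 0.0608), the replicate block (0.058) and the alternatives named beside the result, and was just kept without AtrxΔE2 arrays 4 and 5 (-0.29, 0.0485). The 5-ALA call was lost with median scaling (0.35, 0.0594) and only the compared arrays (0.0505). In series A its difference was 0.01 with median scaling. Directions were judged for values called or at an unadjusted p under 0.05: under median scaling H19 turned to -0.10 for the genotype in series B and -0.09 over both series, called at 0.0464 and 0.0226, and Ndn turned to -0.22 for 5-ALA against wild type without 5-ALA arrays 3 and 4. Sgce for 5-ALA against wild type was called in 10 of 37 settings. Among these were the authors' table at a pseudocount of 5 (limma adjusted p 0.0363) and only the compared arrays (0.0271), while it stood at 0.351 with median scaling. Zim1 in that comparison was called with the authors' table at pseudocounts of 5 and 1 (-0.38 and -0.55, limma adjusted p 0.0299 and 0.0431).

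Median scaling changed the genotype calls over all probes in series B to 1282 higher and 2656 lower, against 274 and 269, and over both series to 1209 and 4091, against 14 and 6. With the authors' table at a pseudocount of 5 the split in series B was 108 and 507. With a pseudocount of 1 the median of all probes was -0.116 for 5-ALA minus wild type. With blank spots as a covariate 1 probe was called for the genotype in series B, against 543, and with averaged arrays 36. For 5-ALA against AtrxΔE2 averaged arrays gave 10 probes called higher and 13 lower, against 787 and 735. For 5-ALA against wild type they gave 7 and 8, against 1238 and 1097.

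Replicate numbers correlated between genotypes at 0.14, 0.0847 and 0.508 in series A and at -0.138 to 0.0335 in series B, so they were not taken as pairs. With the replicate block, 417 probes were called in series B against 543. Consecutive arrays of series B had a consensus correlation of 0.359. The mean over a gene's probes was not run, since each member has 1 probe. Dim members near the blank spots could show only large changes.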
